A study of Mus musculus with 12 samples.

Results

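Polyps from the colorectum of Apc mutant mice were compared with normal colorectal tissue of wild-type mice, across all genes read by a whole-genome array. The comparison holds 8 of the 12 arrays of the series: 4 of polyps, from mice 103, 106, 107 and 110, and 4 of wild-type tissue, from mice 102, 104, 105 and 108. Titles, which name genotype and tissue, decided which arrays entered. All mice were C57BL/6N females aged 14 weeks. The polyp donors were heterozygous for the Apc Δ716 allele (Apc+/Δ716), and the wild-type mice carried no altered allele. The remaining 4 arrays are normal colorectal tissue of the same Apc+/Δ716 mice and are used here for reference only. Each array was hybridised with RNA of whole tissue, so fewer cells of a type and less RNA per cell cannot be told apart in any result below. Beyond the mouse numbers the labels give no detail on sampling, so p-values measure the spread between these samples.

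Apc is a scaffold of the complex that marks beta-catenin for destruction. Where that complex fails, beta-catenin enters the nucleus and acts with TCF/LEF factors on Wnt target genes, among them genes of the crypt base and feedback inhibitors of the pathway. The normal colon keeps that programme to the crypt base, carries absorptive, goblet and enteroendocrine cells above it, and has few or no Paneth cells, the antimicrobial cells of small intestinal crypts.

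Each level below is a log2 signal minus the array's 75th percentile, given for wild type in the order of mice 102, 104, 105 and 108 and for polyps in the order 103, 106, 107 and 110, or as mean ± SD (n = 4). Differences are polyps minus wild type on the log2 scale ± SE, and stand without a fold where some arrays of a group were not above background. A gene entered the test if all 4 arrays of either group showed its probe well above background, and was called where limma gave a Benjamini-Hochberg adjusted p under 0.05 over all tested genes. All 4 wild-type arrays lay on slide 1 and the polyp arrays on slides 2 and 3, so slide and group cannot be told apart. The normal Apc arrays lay on slides 2 and 3 beside the polyps.

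Most of the array differed between the groups. Of 19976 tested genes 12102 (60.6%) were called by limma, 5512 higher in polyps (27.6%) and 6590 lower (33.0%). The groups did not overlap at 11383 genes (57.0%). Changes were often large: 2338 called genes were at least 2-fold higher and 2799 at least 2-fold lower, 466 and 424 passed 8-fold, and 161 and 42 passed 32-fold. Folds of dim genes in these counts rest on signals near background. Across genes, which are not independent replicates, arrays correlated at 0.976 to 0.992 within wild type, 0.981 to 0.990 within polyps and 0.875 to 0.912 between the groups. The median difference over tested genes was −0.05. Which direction held more calls depended on the scaling, since 6040 of 11934 calls were higher after quantile normalization. The shares above are the background for every count of a gene list below.

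**Figure D1:**
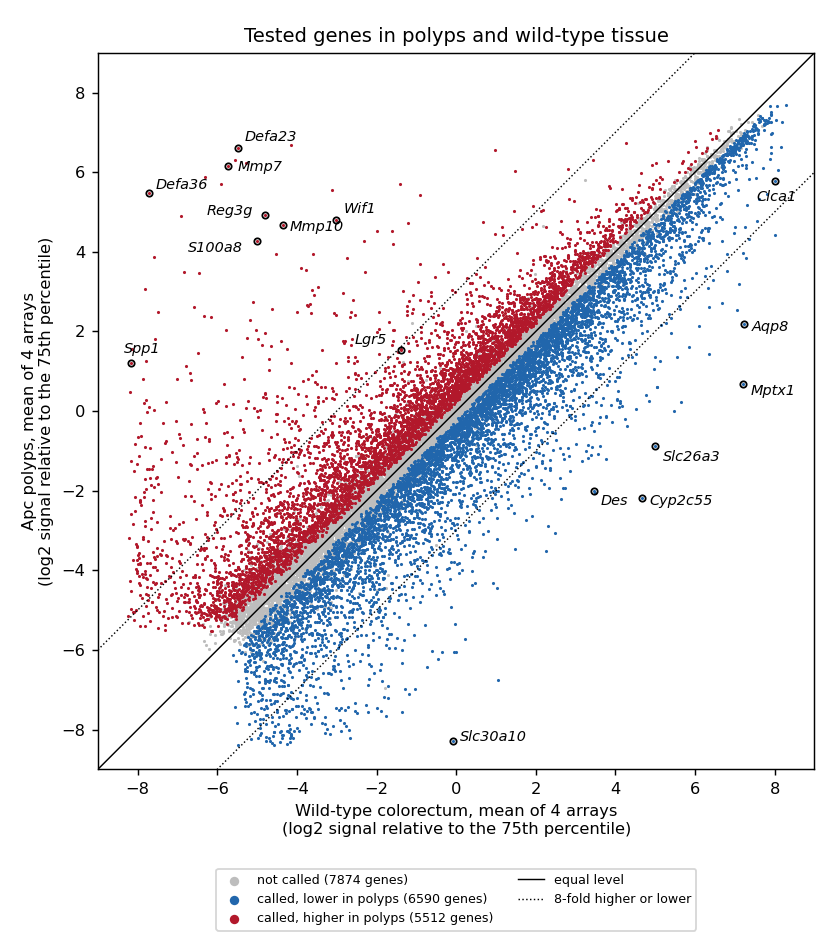
Mean log2 signal of 4 wild-type arrays (x axis) and 4 polyp arrays (y axis), relative to the 75th percentile of each array, for the 19976 tested genes, coloured by the limma call, with dotted lines for 8-fold differences. Genes far above the diagonal, such as Defa36, Mmp7 and Spp1, were at or near background in wild type, while genes far below it, such as Aqp8 and Slc26a3, kept a signal above background in polyps.

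The tissue labels were checked against markers. Wild-type tissue carried strong signals of colonic epithelium, with the water channel gene Aqp8 at 7.23 ± 0.11, the carbonic anhydrase gene Car1 at 7.11 ± 0.11 and the goblet cell gene Clca1 at 7.998 ± 0.14. Polyps kept the epithelial keratin gene Krt8 (7.26 ± 0.08 against 7.90 ± 0.11 in wild type) and the membrane mucin gene Muc13 (6.98 ± 0.17 against 7.93 ± 0.08). Apc itself read −3.20, −3.25, −3.19 and −3.23 in wild type and −3.67, −3.45, −3.53 and −3.50 in polyps. The groups did not overlap, and the difference was −0.32 ± 0.08 (1.25-fold lower, limma adjusted p = 0.00731; the alternatives gave 0.00131 to 0.0387). The sources used here do not place this probe inside or outside the changed stretch of the gene, so the genotype was not checked by it.

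Genes of the Wnt pathway were mostly higher in polyps. Of 25 tested targets and feedback inhibitors, 20 rose and 2 fell, with a median difference of 1.71. Sp5, a transcription factor gene, read −7.63, −7.61, −7.87 and −8.32 in wild type, where no array was well above background, and 1.23, 1.34, 0.34 and 0.27 in polyps. It was at least 105-fold higher in polyps. For this bound each wild-type array was given its dimmest signal still well above background, or the probe's own value where that was larger, and the polyp mean was set against the mean of these. Bounds below are made the same way and have no test of their own.

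Secreted inhibitors of Wnt signalling were among the strongest members. Wif1, which binds Wnt ligands, read −2.78, −2.88, −2.80 and −3.59 in wild type and 5.15, 5.16, 4.21 and 4.63 in polyps, a 223-fold rise (7.80 ± 0.27, limma adjusted p = 1e-06). Dkk2, which acts on the Wnt co-receptor, read −5.46, −4.93, −4.64 and −4.91 against 1.92, 2.10, 1.70 and 1.49 and rose by 6.79 ± 0.20, with 3 wild-type arrays above background. The lowest polyp array lay 6.99 log2 units above the highest wild-type array for Wif1 and 6.13 for Dkk2. Axin2, a scaffold of the destruction complex and a common readout of the pathway, rose less, from −4.86, −4.62, −4.75 and −4.56 to −1.56, −1.89, −2.78 and −2.74 (5.50-fold, 2.46 ± 0.28, limma adjusted p = 0.000139, and 3.20 on a second probe). Further rises were those of the inhibitors Apcdd1 (5.91 ± 0.40), Nkd1 (3.95 ± 0.30) and Notum (1.03 ± 0.28), the receptor-degrading ligases Rnf43 (2.01 ± 0.17) and Znrf3 (1.55 ± 0.24), and the pathway's own DNA-binding factors Lef1 (4.19 ± 0.39) and Tcf7 (3.64 ± 0.18). The members that fell were the inhibitor Nkd2 (−0.51, and −2.76 on a second probe) and the co-receptor gene Tdgf1 (−0.59). Myc, a driver of growth, rose from −1.77, −1.11, −1.61 and −1.75 to 0.35, 0.18, 0.13 and −0.07 (3.27-fold, 1.71 ± 0.17, limma adjusted p = 6.33e-05).

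Ligands and receptors of the pathway, looked at after their values were seen, did not move as a block. Of 14 tested Wnt ligand genes 7 rose and 3 fell, and of 10 Frizzled receptor genes 3 rose and 3 fell. The filter shaped these counts. Among the genes that rose, Wnt10a, Wnt3, Wnt7a, Wnt9b, Fzd10 and Fzd3 entered the test through the polyp arrays alone. Among those that fell, Wnt8b and Wnt9a entered through the wild-type arrays alone. The groups overlapped for Wnt9b, whose bound was 1.5-fold. Wnt10a was well above background on no wild-type array and read 2.73, 2.35, 0.04 and 1.12 in polyps, at least 178-fold higher. Wnt6 rose by 4.70 ± 0.50, while Wnt8b (−3.67) and Wnt4 (−1.38) fell. The receptor gene Fzd10 was at least 23.0-fold higher, with −0.90, −0.47, −2.17 and −2.02 in polyps, and Fzd5 fell by 1.90. Prox1, a homeobox gene of the target list that lymphatic endothelium also expresses, read 0.40, 0.28, −1.08 and −0.87 and was at least 47.5-fold higher. For Wnt10a, Fzd10, Sp5, Axin2 and Prox1 the polyps of mice 103 and 106, on slide 2, lay above those of mice 107 and 110, on slide 3, and the part of the slide in this order was not tested.

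Stem cell markers, which share Axin2, Ascl2 and Cd44 with the Wnt list, were mostly higher: 10 of 14 rose and 3 fell, median 1.18. Lgr5, the receptor that marks crypt base stem cells, read −1.65, −1.38, −0.91 and −1.56 in wild type and 1.71, 1.11, 1.84 and 1.51 in polyps (7.57-fold, 2.92 ± 0.21, limma adjusted p = 1.69e-05). The groups did not overlap. Tnfrsf19, a receptor gene of crypt base cells, rose by 3.36 ± 0.21 (1.39 on a second probe) and Smoc2 by 1.72 ± 0.18. In the other direction, the RNA-binding protein gene Msi1 went from 2.79, 2.93, 2.85 and 3.27 to 0.50, 0.44, 0.35 and 0.87 (−2.42 ± 0.15), and Rgmb (−1.41) and Lrig1 (−0.77) fell as well.

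Nearly all tested genes of cell division rose. Of 24 DNA replication genes 23 rose (median 1.35) and all 24 tested mitosis genes rose (median 1.34, range 0.64 to 2.02). Gins1, a subunit of the replicative helicase, read −1.91, −1.86, −1.80 and −1.88 against 0.55, 0.55, 0.57 and 0.60 (5.37-fold, limma adjusted p = 4.25e-07). Among the mitosis genes, Top2a, which untangles DNA, rose 4.05-fold, the checkpoint gene Mad2l1 3.51-fold and the cyclin-dependent kinase gene Cdk1 3.43-fold. Of 24 ribosome biogenesis genes 21 rose, median 0.90, among them the helicase gene Ddx21 (1.41 ± 0.09) and Mybbp1a (1.32 ± 0.10), while Utp20 fell by 1.009. The groups did not overlap at 23, 24 and 21 members of these 3 lists.

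**Figure D2:**
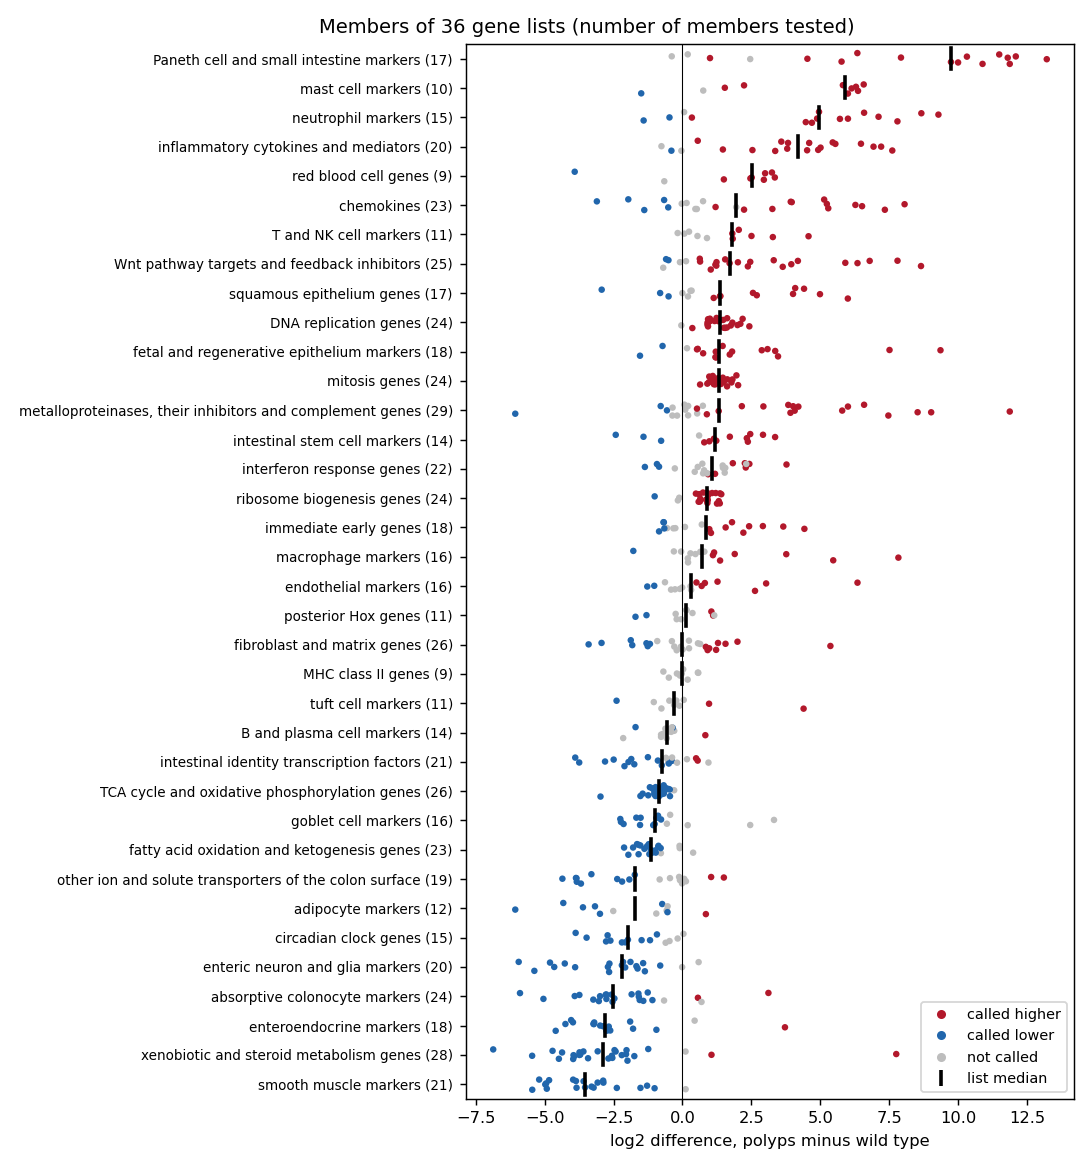
Log2 differences, polyps minus wild type, of the tested members of 36 gene lists, 1 point per gene coloured by the limma call, with a line for the list median. Paneth cell, mast cell and neutrophil markers have the highest medians (9.74, 5.91 and 4.95), and smooth muscle, xenobiotic metabolism and enteroendocrine genes the lowest (−3.53, −2.88 and −2.82).

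Paneth cell products had the highest differences among the lists. Of 17 tested Paneth cell and small intestine markers 14 rose, median 9.74 (8.41 once 4 dim genes take their bound). Alpha-defensins, small antimicrobial peptides stored in Paneth cell granules, led them. Over the whole family, 21 of 23 tested alpha-defensin genes were higher, but most entered the test through the polyp arrays alone. The difference exceeded 5 on the log2 scale for 16 genes. Those above background on no wild-type array were taken at their bound, and the rest at their measured difference, often from wild-type signals near background. Among family members above background on every array, Defa1 rose by 10.82, Defa-rs12 by 0.79 and Defa31 by 0.65 (4.91 on a second probe). Defa-rs10 (−0.19) did not pass. Of the 8 list members above background on all 8 arrays 5 rose, median 3.49. Defa36 read −7.72, −8.08, −7.95 and −7.16 in wild type, all not well above background, and 5.42, 5.49, 5.83 and 5.22 in polyps, and was at least 2703-fold higher. Defa24 was at least 1793-fold, Defa30 at least 879.6-fold, Defa21 at least 507-fold, Defa26 at least 340.2-fold and the pseudogene Defa-ps1 at least 366-fold higher. Defa23 went from −5.26, −5.57, −5.78 and −5.33, with 3 arrays above background, to 6.50, 6.43, 7.02 and 6.47. Defa1, above background on every array, went from −5.23, −4.10, −3.68 and −3.59 to 6.45, 6.53, 6.99 and 6.72 (1810.0-fold, 10.82 ± 0.35). The 4 polyps lay within 1 log2 unit of each other for each of these genes.

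Some alpha-defensin genes are near-identical copies, so the level of a single copy is uncertain among them. The 60-base probes of 3 such genes, on chromosome 8 (mm9 positions), are shown because they tell how alike these targets are. Not every probe aligned this closely: the closest alpha-defensin match of the Defa21 probe had 58.1% identical bases over 43 bases aligned without gaps. Probes may lie on different stretches of their transcripts, so such a value does not show how alike the genes are. Capitals mark bases that differ from the Defa36 probe, 6 for Defa32 and 8 for Defa3, and Defa32 and Defa3 rose by 12.17 and 11.49.
Defa36, chr8:22675997-22676056: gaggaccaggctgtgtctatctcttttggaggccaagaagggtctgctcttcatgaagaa
Defa32, chr8:22639658-22639717: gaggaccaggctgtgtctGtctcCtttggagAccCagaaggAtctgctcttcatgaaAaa
Defa3, chr8:22427233-22427292: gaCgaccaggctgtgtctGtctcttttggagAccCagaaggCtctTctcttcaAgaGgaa

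The other Paneth cell products include Mmp7, the protease that activates alpha-defensins, the lectin gene Itln1, the lysozyme gene Lyz1 and the phospholipase gene Pla2g2a. Mmp7 read −6.38, −5.34, −6.03 and −5.13 in wild type, with 2 arrays above background, and 5.76, 5.99, 6.52 and 6.34 in polyps (11.87 ± 0.30). Itln1 rose 81.2-fold, Pla2g2a 54.6-fold and Lyz1 23.1-fold, all 3 above background on every array. The secreted lectins Reg3g and Reg3b, made by Paneth cells and by other epithelial cells, rose by 9.74 ± 0.50 and 10.32 ± 1.26, the latter with 1 wild-type array above background. The ribonuclease gene Ang4 (2.46 ± 1.26, limma adjusted p = 0.124), Reg4 (−0.39) and Spink4 (0.19) did not pass.

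Promoters of some of these genes are shown because most alpha-defensin windows hold the same short letters. RefSeq promoter sequences of build GRCm38.p6 were matched for 105 of the 148 named genes, and the 250 bases before each start site were searched on both strands. The letters CTTTGAT, or ATCAAAG on the other strand, a core of TCF/LEF sites, were in 3.21% of 32851 promoters and in 13 of 16 alpha-defensin promoters (81.2%), copies that share their sequence. They were in 1 of 22 promoters of the Wnt target list (4.55%), in 0 of 23 of DNA replication genes and in 0 of 16 of neutrophil markers. The last 150 bases before the start site are given for 3 defensin genes and for Sp5 and Reg3g, 5′ to 3′ on the gene's strand, with these letters in capitals.
Defa21, chr8:21025395-21025544, plus strand: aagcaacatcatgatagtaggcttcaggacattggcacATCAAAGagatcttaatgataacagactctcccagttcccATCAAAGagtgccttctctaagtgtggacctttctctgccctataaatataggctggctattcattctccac
Defa23, chr8:21054890-21055039, plus strand: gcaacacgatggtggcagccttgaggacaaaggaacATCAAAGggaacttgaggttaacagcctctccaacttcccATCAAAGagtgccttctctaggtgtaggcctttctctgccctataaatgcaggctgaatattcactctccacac
Defa36, chr8:21427278-21427427, plus strand: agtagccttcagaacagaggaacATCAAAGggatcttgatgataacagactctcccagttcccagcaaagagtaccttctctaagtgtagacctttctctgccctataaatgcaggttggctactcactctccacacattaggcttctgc
Sp5, chr2:70474773-70474922, plus strand: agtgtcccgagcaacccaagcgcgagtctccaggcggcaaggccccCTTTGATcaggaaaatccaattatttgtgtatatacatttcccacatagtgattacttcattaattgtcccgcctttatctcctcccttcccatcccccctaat
Reg3g, chr6:78468875-78469024, minus strand: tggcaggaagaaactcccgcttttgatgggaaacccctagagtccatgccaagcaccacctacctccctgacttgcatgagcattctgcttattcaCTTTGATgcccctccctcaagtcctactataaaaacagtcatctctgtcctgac

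In Defa21 and Defa23 the letters occur at 2 places, starting 112 and 72 bases before the start site in Defa21 and 114 and 74 in Defa23, and in Defa36 they start 127 bases before it. They start 104 bases before the start in Sp5 and 54 in Reg3g. Defa38 and Defa42, whose windows do not hold these letters, were higher too, Defa38 at least 144-fold and Defa42 by 7.83, with 2 wild-type arrays above background for the latter. A match is a run of letters, and binding was not measured here. Over the genes detected in polyps only, described next, 14 of 181 promoters of genes other than alpha-defensins held the letters (7.73%), and over those detected in wild type only 3 of 123 (2.44%).

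Some genes were detected in 1 group only, that is, well above background on all 4 arrays of a group and, by every probe, on no array of the other. There were 288 such genes in polyps, 77 of them with a clone or predicted name. By their bounds 227 rose at least 2-fold, and 82 of these passed 8-fold. Habp2, a serine protease of the blood that binds hyaluronan, read 1.90, 1.48, 2.28 and 1.62 in polyps. It was at least 212-fold higher (a bound of 7.73), while a second probe differed by 4.80. Habp2 was also above background on all 4 normal Apc arrays, where it stood 2.48 above wild type (limma adjusted p = 0.0358). Spp1, which encodes the secreted phosphoprotein osteopontin, read 0.86, 1.32, 1.25 and 1.34 and was at least 138-fold higher. Other genes of this set were picked after their values were seen. The cell cycle inhibitor gene Cdkn2a (0.02, −0.24, −0.69 and −1.44, at least 37.5-fold, a bound of 5.23, against a difference of 3.56 on a second probe), the mesoderm factor T (at least 24.1-fold) and the fetal serum protein gene Afp (at least 18.5-fold) were above background on no normal array of either genotype. The cystine transporter gene Slc7a11 (at least 17.0-fold) was so on 1 normal Apc array.

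Membership in this set depends on the detection rule. With 3 of 4 arrays required in place of all 4 there were 504 genes, and without the polyp array of mouse 103 there were 443. By the scanner's less strict test, a signal positive and significant against background, 134 genes were found in polyps only, 37 of them among the 288. Wnt10a, Cxcl2 and Cxcl3 were the named genes that met both rules. On the normal arrays of Apc mice, 140 of the 288 were above background on no array and 13 on all 4.

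**Figure D3:**
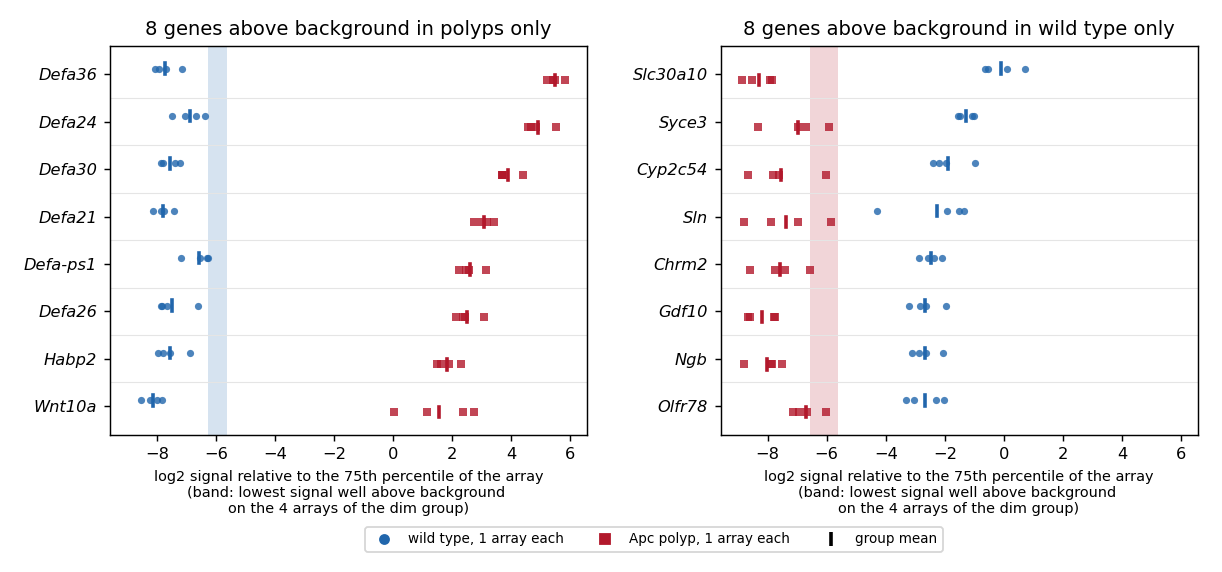
Log2 signal of each array, relative to its 75th percentile, for the 8 genes with the highest bounds in each direction, with bars for group means and a band for the lowest signals well above background on the 4 arrays of the dim group. Every array of the dim group lies below or within the band, and every array of the bright group lies above it.

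Genes that remodel matrix were often higher in polyps. Of 29 tested metalloproteinase, inhibitor and complement genes 17 rose and 3 fell, median 1.31. Mmp10, a stromelysin, read −4.06, −3.62, −4.33 and −5.41 in wild type and 4.03, 5.28, 4.82 and 4.53 in polyps (519.6-fold, 9.02 ± 0.41, limma adjusted p = 3.07e-06). Mmp13, a collagenase, went from −2.55, −3.45, −3.80 and −5.74 to 3.0, 3.97, 3.72 and 3.65 (177-fold). The groups lay far apart for both, while the wild-type arrays varied more than the polyps. The complement protease gene Cfi rose by 8.53 ± 0.28, with 2 wild-type arrays above background. The gelatinase gene Mmp9 was at least 49.3-fold higher, and the inhibitor Timp1 (3.92 ± 0.30) and the plasminogen activator receptor gene Plaur (4.204 ± 0.27) rose as well. The complement factor D gene Cfd, which adipocytes express, fell by 6.07 with an SE of 1.79. Of the falls in this list 0 were called without the polyp of mouse 106, and 1 without the polyp of mouse 110 or the wild-type array of mouse 102 or 104.

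Most inflammatory mediators tested rose. Of 20 cytokines and mediators 17 rose, median 4.17 (3.45 once 7 dim genes take their bound), and Ptges fell by 0.40 (1.87 on a second probe). Il11, a relative of interleukin-6, read −4.25, −4.72, −4.75 and −4.81 in wild type and 1.83, 3.73, 2.43 and 2.31 in polyps (148-fold, 7.21 ± 0.38). Il6 was at least 61.1-fold and Il17a at least 25.4-fold higher, and Il1b rose 88.9-fold. Tnf went from −3.06, −3.998, −3.88 and −3.95 to 0.39, 1.09, 0.73 and 0.99 (23.0-fold), and Ptgs2, the inducible cyclooxygenase gene, rose 24.2-fold. The receptor of interleukin-33, Il1rl1, rose 162-fold (7.34), with 4.0 and 5.58 on its other probes. Of 23 chemokine genes 12 rose and 5 fell. Those that attract neutrophils led, with Cxcl3 at least 72.6-fold and Cxcl2 at least 38.4-fold higher and Cxcl5 up by 6.51 ± 0.44. Ccl28, a chemokine of mucosal epithelium, fell by 3.11. Alox12, a lipoxygenase gene, rose 178-fold (7.48 ± 0.29, with 5.61 on a second probe).

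The AP-1 letters TGANTCA were in 6.75% of all promoters searched and in 6 of 23 promoters of the metalloproteinase and complement list (26.1%). Shares in other lists varied, and a link between the letters and level was not tested. Among goblet cell markers, a list with no gene called higher, the letters were in 4 of 9 promoters (44.4%), from 3 of 8 genes. Among MHC class II genes, where no gene was called, they were in 2 of 8 (25.0%). Among cytokines and mediators, most of which rose, they were in 6 of 18 (33.3%), and among interferon response genes in 4 of 18 (22.2%). Among neutrophil markers, most of which rose, they were in 0 of 16. They are in capitals in the last 150 bases before the start site of 3 metalloproteinase genes and of Il11, which also has a second promoter without them. They start 63 bases before the start site in Mmp10 and Mmp7, 35 in Mmp13 and 98 in Il11. Genes of the AP-1 subunits themselves were mixed: Fosl1 (3.66 ± 0.43) and Jun (1.03) rose, Jund fell (−0.85), and Fos stood at −0.56 without passing.
Mmp10, chr9:7502192-7502341, plus strand: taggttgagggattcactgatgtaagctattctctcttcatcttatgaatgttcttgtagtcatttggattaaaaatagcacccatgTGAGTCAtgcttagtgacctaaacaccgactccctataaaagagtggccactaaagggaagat
Mmp7, chr9:7691940-7692089, plus strand: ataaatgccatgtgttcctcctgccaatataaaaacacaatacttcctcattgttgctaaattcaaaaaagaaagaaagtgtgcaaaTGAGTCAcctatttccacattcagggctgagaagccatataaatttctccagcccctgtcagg
Mmp13, chr9:7272364-7272513, plus strand: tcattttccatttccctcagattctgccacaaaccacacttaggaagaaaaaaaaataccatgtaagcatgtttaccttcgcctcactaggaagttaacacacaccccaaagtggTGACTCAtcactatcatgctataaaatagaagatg
Il11, chr7:4778142-4778291, minus strand: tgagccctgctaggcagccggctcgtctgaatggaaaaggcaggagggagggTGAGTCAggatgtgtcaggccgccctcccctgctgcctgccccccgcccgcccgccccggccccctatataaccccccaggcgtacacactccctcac

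Markers of neutrophils and mast cells were mostly higher, with exceptions among the defining markers. Of 15 neutrophil markers 12 rose, median 4.95 (4.88 once 4 dim genes take their bound). S100a8 and S100a9, the subunits of calprotectin, rose 624-fold and 406-fold. S100a8 read −3.90, −5.63, −4.72 and −5.81 in wild type and 2.59, 4.58, 4.95 and 4.97 in polyps, the polyp of mouse 103 being the lowest. Lcn2, an iron-sequestering protein gene that epithelial cells also express, rose 138-fold, and the receptor gene Clec4e was at least 64.1-fold higher. Ly6g, a surface marker of mouse neutrophils, fell by 1.41 and the growth factor receptor gene Csf3r fell by 0.47. Of 10 mast cell markers 8 rose, median 5.91 (5.02 once 1 dim gene takes its bound): among them the proteases Mcpt1 (6.57 ± 0.63), Mcpt2 (5.82 ± 0.62) and Mcpt4 (6.37 ± 0.54), and Hdc, which makes histamine (6.13 ± 0.40, with 3 wild-type arrays above background). Kit, the receptor of mast cells and of the gut's pacemaker cells, fell by 1.496. Mcpt4 read 1.48, 2.24, 3.05 and 3.80 in polyps, and Fcer1a, the IgE receptor chain, −2.95, −2.05, −1.20 and −0.57, both lowest in mouse 103 and highest in mouse 110.

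Other immune lists moved less. Of 16 macrophage markers 7 rose and 1 fell, median 0.72. Arg1, an arginine-degrading enzyme, read −5.03, −4.87, −5.28 and −5.19 against 1.87, 2.67, 2.94 and 3.48 (228-fold), while Csf1r (0.29) and Adgre1 (0.20) did not pass. The integrin gene Itgam was lower on its brightest probe (−1.78), while its other probes read 0.27 and 1.95. Of 20 T and NK cell markers 11 were bright enough to test and 6 of these rose, led by the granzymes Gzmb (4.57 ± 0.52) and Gzma (3.28 ± 0.51), while Cd3e (0.24) and Cd4 (−0.18) did not pass. Foxp3, the factor of regulatory T cells, rose by 1.82, with 1 wild-type array above background. In Apc normal tissue Foxp3 also stood 1.78 above wild type (limma adjusted p = 0.0490), with 4 arrays above background. Of 14 B and plasma cell markers 1 rose, Sdc1, which epithelium also expresses, and 2 fell, Pax5 (−1.70) and Cd22 (−0.36). The call of Cd22 ended in 9 alternatives (limma adjusted p up to 0.245) and that of Pax5 with the mean over its probes (0.163). Among 9 MHC class II genes limma called 0, and 0 had an unadjusted p under 0.05. Of 22 interferon response genes 7 rose and 3 fell, with Usp18 the strongest (3.77 ± 0.45) and the polyp of mouse 106 above the others for it. The count of 7 rises lay near the share of all tested genes called higher, 27.6%. Both counts moved with the arrays and the fit. Without the polyp of mouse 103, 17 rose, with array weights 12, and with all 12 arrays in 1 fit 11. Only 1 fell without the wild-type array of mouse 102 or 108.

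Red blood cell genes were mostly higher in polyps. Of 9 tested, 7 were higher in polyps, median 2.51, among them the beta-globin genes Hbb-bt (3.25 ± 0.32) and Hbb-bs (2.998 ± 0.37) and the haem synthesis gene Alas2 (3.35 ± 0.36). Hbb-bt read 1.77, 1.04, 1.26 and 0.62 in wild type and 4.49, 5.03, 4.44 and 3.699 in polyps. The list's summed level, on the log2 scale, was 7.30 to 7.45 in wild type and 6.95 to 8.14 in polyps. Car1, which colonocytes also express, made up most of the wild-type sum (mean 7.11) and was the member that fell. In Apc normal tissue the median of this list stood 1.96 above wild type, and 5 of its genes were called there. The part of blood in the immune results was not tested.

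**Figure D4:**
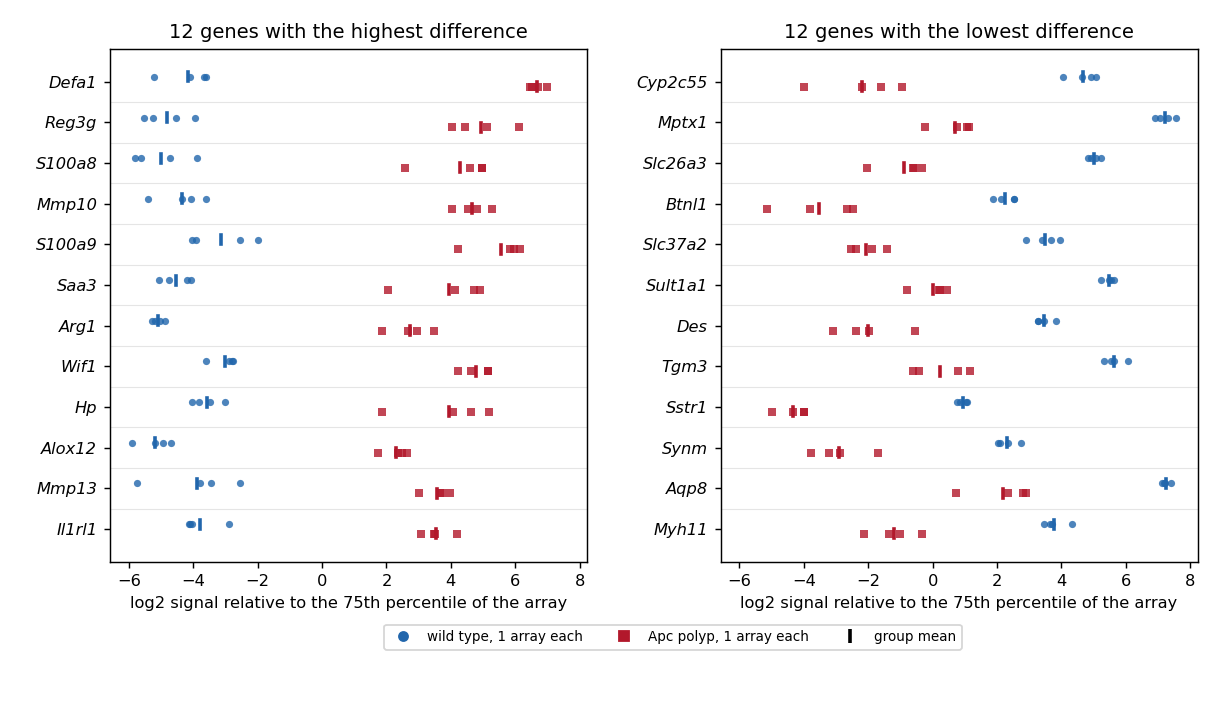
Log2 signal of each array, relative to its 75th percentile, for the 12 genes with the highest and the 12 with the lowest difference among called, named genes above background on all 8 arrays, with bars for group means. The groups lie apart for every gene, as the choice of genes required, and among these genes polyps spread most for Hp, Saa3, Cyp2c55 and Btnl1 (SD 1.46, 1.31, 1.31 and 1.23).

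Absorptive cell genes were lower in polyps. Of 24 colonocyte markers 20 fell and 2 rose, median −2.50. Slc26a3, the apical chloride-bicarbonate exchanger, read 5.07, 4.81, 4.93 and 5.21 in wild type and −0.33, −2.04, −0.61 and −0.56 in polyps (59.5-fold lower, limma adjusted p = 8.47e-06). Aqp8 read 7.39, 7.18, 7.23 and 7.13 against 2.33, 0.74, 2.80 and 2.89 (33.0-fold lower). The polyp of mouse 106 was the lowest for both. Car1 fell 15.0-fold and the phosphate carrier gene Slc20a1 13.4-fold (−3.74 ± 0.11, though −0.67 on a second probe). The exceptions were the retinol dehydrogenase gene Dhrs9 (3.12 ± 0.56) and the guanylin family gene Guca2b (0.56). Of 19 other transporters 10 fell, among them the sulphate carrier Slc26a2 (−4.36 ± 0.27), the butyrate carrier Slc5a8 (−3.86 ± 0.22) and the magnesium channel Trpm6 (−3.84 ± 0.20), and the basolateral chloride carrier Slc12a2 rose by 1.04.

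Secretory cell genes were lower to different degrees. Of 18 enteroendocrine markers 16 fell, median −2.82 (−2.74 once 1 dim gene takes its bound). Insl5, a hormone of colonic L cells, read 4.78, 5.02, 4.66 and 4.92 in wild type and 0.00, −0.09, 0.09 and 0.98 in polyps (24.2-fold lower), and the granule protein genes Chga and Chgb fell 9.29-fold and 9.19-fold. Nts, the neurotensin gene, rose by 3.72 ± 0.44. Of 16 goblet cell markers 11 fell, median −0.98. The mucin gene Muc2 fell 2.01-fold, the secretory cell factor Atoh1 4.77-fold and Clca1 4.70-fold (−2.23 ± 0.21, though −0.13 on a second probe). The difference between these lists was not tested. Retnlb (3.32 ± 1.68, limma adjusted p = 0.120) varied between wild-type mice with an SD of 3.71. Of 11 tuft cell markers 2 rose and 1 fell, with Avil up by 4.39 ± 0.24 and the channel gene Trpm5 at −2.39, and 3 fell without the polyp of mouse 110. Without the wild-type array of mouse 108, 2 goblet cell markers rose.

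Factors that set intestinal identity were partly lower: 13 of 21 fell and 2 rose, median −0.75. The nuclear receptors Vdr (14.8-fold), Nr5a2 (13.4-fold) and Hnf4a (3.88-fold) fell, and so did Cdx2 (−2.50), Cdx1 (−1.75) and Klf4 (−2.81). Hnf4a read 5.86, 5.69, 5.57 and 5.74 against 4.03, 3.31, 3.83 and 3.84, with no overlap. Of 11 posterior Hox genes, which mark the position along the gut, 2 rose and 2 fell: Hoxb13 (−1.70 ± 0.19) and Hoxa13 (−1.31 ± 0.20) were lower, Hoxa9 (1.11 ± 0.12) and Hoxa11 (1.05) higher.

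Other single genes had some of the strongest falls. Mptx1, a pentraxin gene, read 7.05, 7.32, 6.91 and 7.55 in wild type and 0.77, 1.08, −0.23 and 1.12 in polyps (92.0-fold lower). Btnl1, which supports intraepithelial gamma-delta T cells, fell 55.1-fold, the sugar-phosphate exchanger gene Slc37a2 46.7-fold and the transglutaminase gene Tgm3 42.9-fold (a second probe read −1.46). The somatostatin receptor gene Sstr1 fell 38.4-fold (a second probe read −1.19).

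Genes of metabolism were lower with few exceptions. Of 28 xenobiotic and steroid metabolism genes 25 fell, median −2.88. Cyp2c55, a cytochrome P450, read 4.92, 4.64, 5.08 and 4.06 in wild type and −2.20, −3.995, −0.94 and −1.61 in polyps (117-fold lower), and the sulphotransferase Sult1a1 fell 43.8-fold, the efflux pump gene Abcb1a 20.6-fold and the carboxylesterase Ces2a 15.1-fold. The nuclear receptors of this pathway, Nr1i3 (−3.71, and −2.32 on a second probe) and Nr1i2 (−1.99), fell too. Cyp2b10 went the other way, at least 59.5-fold up. Of 26 TCA cycle and oxidative phosphorylation genes 25 fell (median −0.84), such as the citrate synthase gene Cs (−1.44 ± 0.09) and Cox4i1 (−1.09 ± 0.08). Cox7a1, the subunit of muscle and heart, was the lowest at −2.97. Of 23 fatty acid oxidation and ketogenesis genes 19 fell (median −1.15), with Acadm at −1.59 ± 0.12 and Cpt1a at −1.65.

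Smooth muscle and nerve genes were lower with few exceptions. Of 21 smooth muscle markers 20 fell, median −3.53 (−3.22 once 2 dim genes take their bound). Des, the muscle intermediate filament, read 3.26, 3.27, 3.82 and 3.45 in wild type and −2.38, −3.09, −1.97 and −0.56 in polyps (43.7-fold lower), the polyp of mouse 110 being the highest. The filament gene Synm fell 36.7-fold, the myosin gene Myh11 31.5-fold and the tropomyosin gene Tpm2 14.6-fold. Mylk fell 12.0-fold, though a second probe read −0.50. The list's summed level was 9.33 to 9.80 in wild type and 5.93 to 6.68 in polyps. Of 20 enteric neuron and glia markers 18 fell, median −2.18 (−1.99 once 2 dim genes take their bound), such as the neuronal gene Stmn2 (14.9-fold). The sources used here do not say how much muscle layer each sample held, and its part in the nerve and metabolic results was not tested.

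Stromal lists held both rises and falls. Of 26 fibroblast and matrix genes 8 rose and 7 fell, median −0.03, and 5 rose without the polyp of mouse 106 or 107. The counts of 8 and 7 lay near the shares of all tested genes, 27.6% higher and 33.0% lower. Inhba, an activin subunit gene, read −2.17, −2.29, −2.18 and −3.696 in wild type and 2.44, 3.63, 2.63 and 2.43 in polyps (41.2-fold), and Wnt5a (1.996), Fn1 (1.56) and Vim (1.29) rose as well. The proteoglycan gene Lum fell 7.65-fold and the microfibril gene Mfap5 10.6-fold. Of 16 endothelial markers 7 rose and 2 fell: Angpt2, which loosens vessel walls, rose 8.19-fold and the lymphatic gene Lyve1 fell 2.42-fold. The rises include Prox1, which is shared with the Wnt list and entered the test through the polyp arrays alone. Only 4 endothelial markers rose without the polyp of mouse 106 or 107, without the wild-type array of mouse 102 or 108, or with no filter on dim probes, and 4 fell without that of mouse 108 or with array weights. Of 12 adipocyte markers 7 fell, with a wide error for Adipoq (−3.61 ± 1.14), and 4 did so without the polyp of mouse 106, without the wild-type array of mouse 104 or after normexp correction. Pck1, also a gene of gluconeogenic epithelium, fell 20.0-fold. The call of Lipe (−0.54) ended after normexp correction (limma adjusted p = 0.0730).

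Genes of fetal and regenerating epithelium were mostly higher, and squamous genes were mixed. Of 18 fetal and regenerative markers 15 rose and 2 fell, median 1.34. Clu, the clusterin gene, rose from 3.94, 2.97, 3.39 and 3.43 to 6.13, 6.21, 6.54 and 6.36 (7.34-fold). The growth factor gene Ereg rose by 3.47 and the alarmin gene Il33 by 3.36. Of 17 tested squamous genes 10 rose and 3 fell, median 1.36. Of the 13 above background on all 8 arrays 6 rose and 3 fell, median 0.33. The keratins Krt23 (17.0-fold), Krt14 (16.1-fold) and Krt17 (6.48-fold) rose and Krt6a was at least 33.1-fold higher, while the basal cell factor Trp63 fell by 0.50 and Krt5 (0.29) did not pass. The cornified envelope gene Sprr2a1 fell 7.62-fold. The AP-1 letters were in 7 of 15 squamous promoters (46.7%) and, as given above, in 4 of 9 of the goblet cell list (44.4%). Their part in the levels was not tested.

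Circadian clock genes were lower: 11 of 15 fell, median −1.98. Dbp, an output factor of the clock, read 4.28, 3.93, 3.58 and 4.68 in wild type and 0.71, −0.23, 0.29 and 0.20 in polyps (14.7-fold lower), and Nr1d1, a repressor of the clock, fell 11.1-fold. Arntl, whose rhythm runs in the opposite phase, fell as well (−1.18 ± 0.14). The sources used here do not say at which hour tissue was taken. Of 18 immediate early genes 9 rose and 4 fell, led by Ier3 (4.42 ± 0.13) and with the orphan receptor gene Nr4a1 at 2.42 ± 0.24.

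In the other direction, 163 genes were detected in wild type only, 34 with a clone or predicted name. By their bounds 146 fell at least 2-fold, and 19 of these passed 8-fold. Slc30a10, a manganese exporter, read 0.70, −0.55, 0.12 and −0.63 in wild type and was at least 65.5-fold lower. Syce3, a gene of meiotic chromosome pairing, was at least 28.7-fold, and the cytochrome P450 Cyp2c54 at least 19.0-fold lower. Sln, which regulates the calcium pump of muscle, read −1.51, −1.92, −1.36 and −4.31 (at least 14.5-fold lower), and Chrm2, a muscarinic receptor of smooth muscle, was at least 12.5-fold lower. Ngb, neuroglobin, was at least 10.9-fold lower, the growth factor gene Gdf10 at least 10.97-fold and the olfactory receptor gene Olfr78 at least 10.9-fold. Of the 163, 50 were above background on all 4 normal arrays of Apc mice and 5 on none. With 3 of 4 arrays required there were 237 genes, and without the polyp array of mouse 110 there were 269. By the less strict signal test there were 86, of which 15 were among the 163, Gdf10 being the named one.

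Values of the normal Apc tissue, which shares the wild-type arrays as its reference, are set beside these results. Between Apc normal and wild-type tissue 46 of 19290 genes (0.238%) passed, 39 of them higher, and 3351 had an unadjusted p under 0.05. By limma that count ran from 0 to 588 as single arrays were left out: 588 without the Apc normal array of mouse 103, 18 without that of mouse 107, 0 without those of mice 106 or 110, and 8, 1, 0 and 1 without the wild-type arrays of mice 102, 104, 105 and 108. It was 237 with all 12 arrays in 1 fit, and the median SD over genes was 0.28 in Apc normal tissue against 0.19 in wild type. Mmp7 stood 5.50 above wild type in Apc normal tissue (limma adjusted p = 0.00787) and 11.87 above it in polyps. Wif1 stood 2.45 (limma adjusted p = 0.0401) and 7.80 above wild type. Hbb-bt stood 2.66 and 3.25 above wild type. A fit of polyps against Apc normal tissue did not pass for it (0.59, limma adjusted p = 0.138). That fit ignored that both tissues came from the same mice. Trank1 differed from wild type by −0.93 in Apc normal tissue and −1.59 in polyps, and Tcp11 by −1.27 and −1.02.

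Defensin genes had wide values in Apc normal tissue. Defa36, above background on no wild-type array, read −2.69, 0.73, −4.27 and −1.80 in the normal tissue of mice 103, 106, 107 and 110, with an SD of 2.09 against 0.25 in polyps, and was not called there (limma adjusted p = 0.0561). Mptx1 ranged from −3.43 in the Apc normal array of mouse 107 to 6.78 in that of mouse 103. Genes of colonocytes and muscle stayed closer to wild type in Apc normal tissue: Slc26a3 differed by −0.59 and Des by −0.66, against −5.89 and −5.45 in polyps. Lgr5 (−0.21) and Il11 (0.58) did not pass there, nor did Slc26a3 and Des. A p that misses the threshold does not show that levels were alike.

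**Figure D5:**
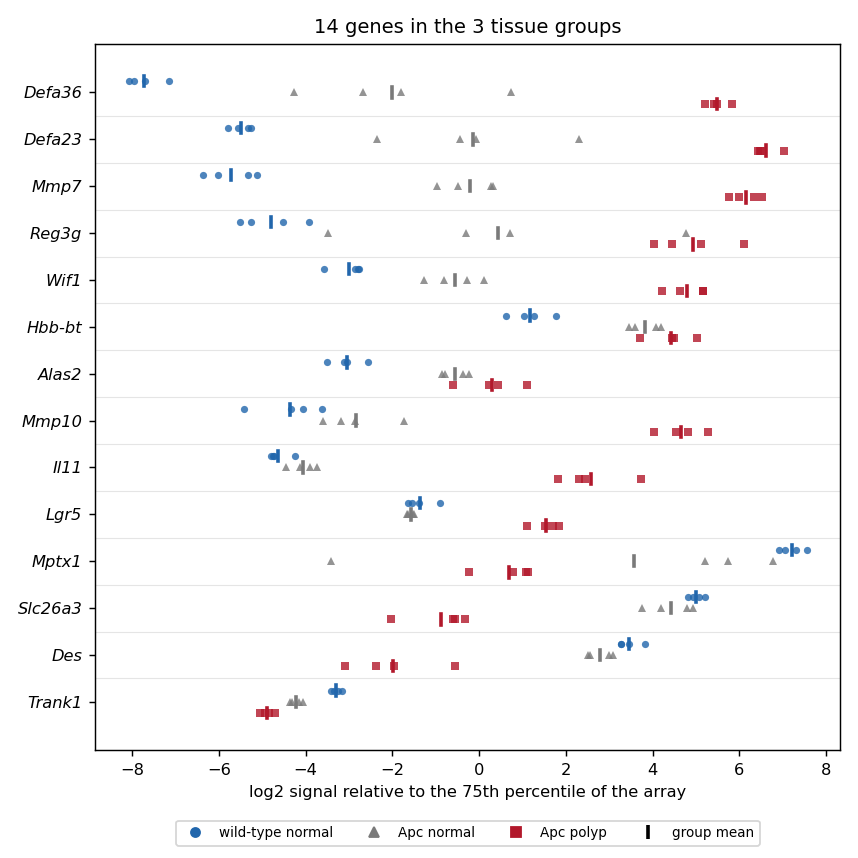
Log2 signal of each array, relative to its 75th percentile, for 14 genes in normal tissue of wild-type mice and in normal tissue and polyps of Apc mice (4 arrays each), with bars for group means. Group means of Apc normal tissue lie between the others for Defa36, Defa23, Mmp7 and Wif1, near the polyps for Hbb-bt and Alas2, and near wild type for Il11, Lgr5, Slc26a3 and Des.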

How the data were processed

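RNA of whole colorectal tissue was hybridised to 1-colour mouse arrays. Per the file headers and the submitters' processing notes, the authors extracted signals with Agilent Feature Extraction 10.7.3.1, and the deposited intensity of each spot is background-corrected. From these, log2 signals were taken and each array's 75th percentile subtracted, with R 4.3.3, limma 3.58.1, Python 3.11.15 and pandas 2.3.3. The deposited value table, used as an alternative, holds linear ratios that matched the intensities within 1% for about 99.8% of entries. Between 64.6% and 73.8% of spots per array were well above background and the number of arrays limits the precision. Spots flagged as outliers (1403) and control spots did not enter, which dropped an array from the fit of 14 genes. No spot was marked as saturated.

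The 39429 probes stood for 30138 genes or transcripts, 27592 named by accession, 3492 by symbol and 393 by synonym through a RefSeq table (GRCm38.p6, names only), and 7952 by the file's own name. The probe of highest mean over the 12 arrays stood for a gene. The limma fit (lmFit, eBayes, two-sided) held the 8 arrays with group as the only term and was tested on simulated data.

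The rule for named genes took Lgr5, Axin2, Myc and Apc, 12 differences at each end among called genes with separate groups and signal over background on all 8 arrays, the 8 highest bounds in each direction, the 3 list members of smallest p, and 4 Apc normal genes per end, clone names left out; some genes are not reported here. Comparison, lists and rule were chosen with earlier results of these data known, and other genes were named after their values were seen. Alternatives covered scaling, background correction, the filter, the probe rule, the model, and each array left out.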

Additional observations from a re-analysis of the deposited data

Results flagged for a closer look

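Over 296 groups of 4 arrays looked at among named genes, 19 held an array far from the other 3, where chance gives about 1 in 20. The log2 signals below are relative to the 75th percentile of each array.

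In the polyp of mouse 103, S100a8 read 2.59 (4.58 to 4.97 in the others), S100a9 4.21 (5.85 to 6.15) and Il1f6 −3.11 (−2.19 to −2.02 in the others). In the polyp of mouse 106, Slc26a3 read −2.04 (−0.61 to −0.33), Mfap5 −3.06 (−2.25 to −2.11) and Pck1 −1.80 (−0.67 to −0.56), all lower than the others, and Inhba read 3.63 (2.43 to 2.63). In the polyp of mouse 107, Defa30 read 4.399 (3.68 to 3.703) and Defa23 7.02 (6.43 to 6.50). In the polyp of mouse 110, Insl5 read 0.98 (−0.09 to 0.09) and Mcm3 2.55 (2.69 to 2.72).

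In wild-type tissue of mouse 102, Defa26 read −6.62 (−7.88 to −7.68, all not well above background), Sprr2a1 −1.62 (−2.40 to −2.29), Il11 −4.25 (−4.81 to −4.72) and Tnf −3.06 (−3.998 to −3.88). In mouse 104, Il1rl1 read −2.87 (−4.14 to −4.03). In mouse 108, Wif1 read −3.59 (−2.88 to −2.78), Inhba −3.70 (−2.29 to −2.17) and Hdc −6.39 (−5.07 to −4.84).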

How the results depend on the processing

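The count of called genes stayed between 10774 and 12555 over the alternatives other than a 2-fold minimum, which left 5137 (2338 higher and 2799 lower). Leaving out single arrays gave 10962 to 11795 calls, 4878 to 5484 higher and 6084 to 6362 lower. Of the 12102 calls, 10827 to 11922 were also called under the alternatives that tested the same genes, with the opposite sign in 191 after quantile normalization, 201 after normexp and 126 with the mean over probes. The share of calls that were higher ran from 43.5% to 50.6%. Genes detected in polyps only numbered 504 with 3 of 4 arrays required, 134 by a positive and significant signal and 292 to 443 as arrays were left out, and those detected in wild type only 86 by that signal and 163 to 269. Between Apc normal and wild-type tissue there were 19 calls with each array's median as the scale, 237 with all 12 arrays in 1 fit, and 0 to 588 as arrays were left out. Over genes above background on all 8 arrays, a filter that leaves fewer members of each list, 6 of 13 squamous, 6 of 9 neutrophil, 5 of 7 mast cell, 3 of 8 T and NK cell and 8 of 10 cytokine and mediator genes rose, with medians of 0.33, 4.95, 2.23, 0.72 and 3.47, and 10 of 12 enteric nervous genes fell (median −1.76). Itgam turned to 0.15 with the mean over its probes (limma adjusted p = 0.493). Of 148 named genes 142 kept their side of the threshold in every setting run; Lipe, Itgam, Pax5, Cd22, H2-DMb1 and Selenow did not. The causes of these changes were not tested. No paired analysis was possible because polyps and wild-type tissue came from different mice and share no replicate number. Signal over background limits the dim genes, whose folds are given as bounds.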
